A study of Mus musculus with 20 samples.

Results

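Liver sinusoidal endothelial cells line the capillaries of the liver, carry open pores and no continuous basement membrane, and clear waste molecules from the blood through scavenger receptors. The genes described here are 10 markers of these cells or of endothelium in general, which are Stab2, Stab1, Lyve1, Clec4g, Kdr, Eng, Pecam1, Cdh5, Oit3 and Dnase1l3. They were taken by gene symbol, each matched 1 row, and they are 10 of the 53028 genes in the table. Stabilin-2 and stabilin-1, the products of Stab2 and Stab1, are also known to bind phosphorothioate antisense oligonucleotides in the blood. The animals here were injected with antisense oligonucleotides, whose backbone chemistry was not examined here.

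The animals were male C57BL/6J mice on chow diet. Starting at 8 weeks of age they received locked nucleic acid oligonucleotides (LNAs) at 3 mg/kg into the peritoneum, 3 times on alternate days, and livers were taken 2 days after the last dose. LNAs against GFP, which these mice do not carry, were the control (mice 1, 2, 3, 8 and 9), and LNAs against SNORA73, a small nucleolar RNA made from the introns of Snhg3, were the treatment (mice 4, 6, 10, 11 and 12). The sample labels spell the target Snora37, whereas the study design and the paper name SNORA73, and the labels do not say which of the 2 SNORA73 LNAs was given. The paper names SNORA73-2 for most of its mouse experiments. The polysome methods describe mice of 10 weeks and a cycloheximide injection before killing. Both RNAs came from the same livers, so age and cycloheximide treatment are not settled by these sources for the animals of either RNA. From each of the 10 livers, 1 library was made of total RNA (transcriptome) and 1 of RNA from polysome fractions (translatome), where mRNAs are bound by several ribosomes, giving 5 mice per LNA in each RNA. The p-values between the LNAs therefore measure the spread between mice within a group. Those between polysome and total RNA come from fits that do not pair the libraries of a liver, except where pairing is stated.

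The oligonucleotides that the study lists for its mouse work are shown because the LNA groups are defined by them. Capitals mark the locked bases at both ends, and lower case marks the DNA gap, which recruits RNase H to the target.
SNORA73 LNA 1: AAGTCgtaggaatatGCAGG
SNORA73 LNA 2: GACTCtgagaagtcgTAGGA
GFP LNA: TCACCttcaccctctCCACT
Each is 20 bases long with 10 locked bases. The 2 SNORA73 LNAs share a run of 11 bases (aagtcgtagga), and the longest run that the GFP LNA shares with either of them is 4 bases. The knockdown could not be read in these libraries of polyadenylated RNA, since Snora73a held at most 2 counts and Snora73b at most 4 in any of the 20 libraries.

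Total RNA libraries held 20005389 to 42023390 estimated counts and polysome libraries 14852951 to 33824659. All 10 marker genes passed the filter on low values in every fit (CPM, counts scaled to a common library size, above 0.5 in at least 4 libraries), with 81 to 1438 counts per gene and library, so none of them entered a fit through a single group. The libraries are of whole liver, where fewer cells of a type and less RNA per cell cannot be told apart. Defining markers of the labelled tissue were present, with the 10 hepatocyte markers (Alb, Apoa1, Ttr and others) summing to between 50230 and 83242 CPM in every library. Levels below are CPM scaled by trimmed mean of M values (TMM) over the 20 libraries, and they are compared between libraries for 1 gene, not between genes, since they are not corrected for transcript length.

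**Figure D1:**
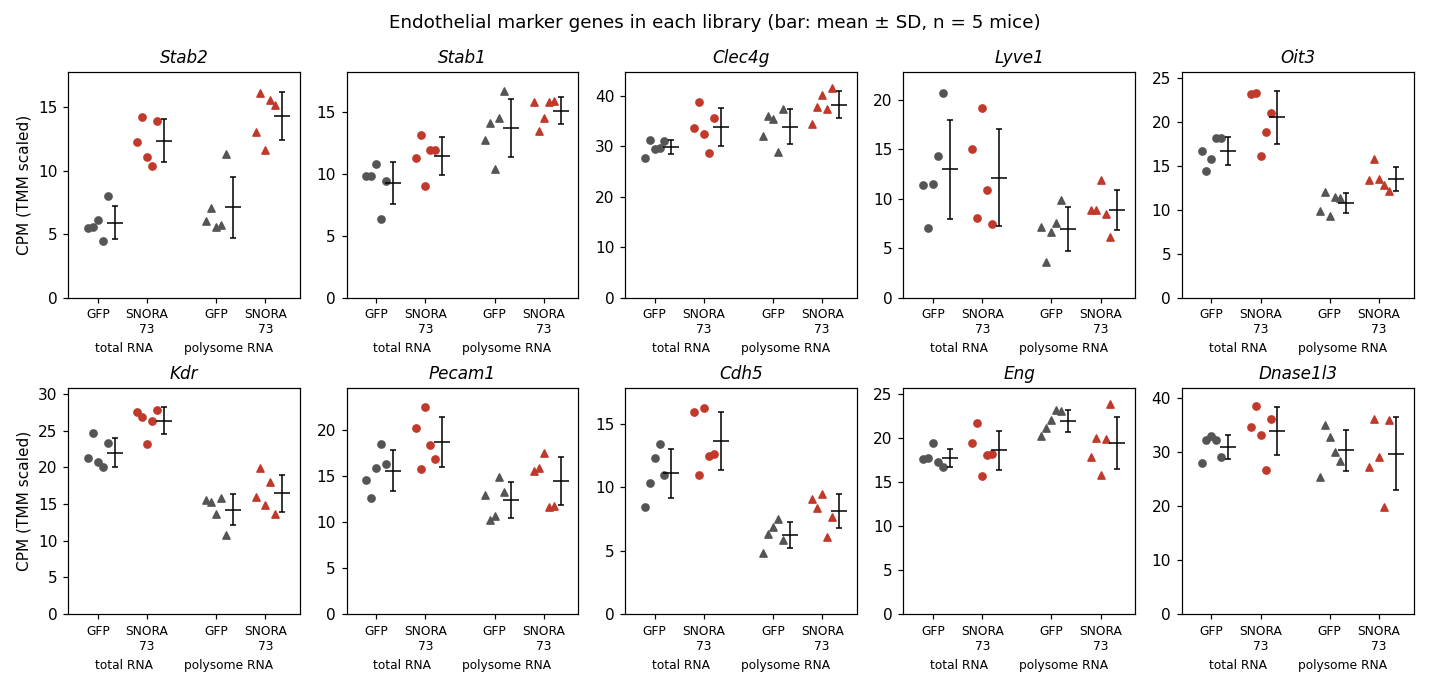
Scaled CPM (y axis, from 0) of each of the 10 marker genes in total RNA (circles) and polysome RNA (triangles) of mice given GFP LNA (grey) or SNORA73 LNA (red). Each symbol is 1 mouse and the bar is the mean ± SD of 5 mice. Stab2 separates the LNA groups in both RNAs, and nothing is read from total RNA, where Stab2 helped to choose the list. The means of Cdh5, Kdr, Oit3, Lyve1, Pecam1 and, by less, Dnase1l3 are lower in polysome than in total RNA under both LNAs.

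The first question was whether the marker genes differed between the LNAs. The list was drawn up around Stab2, which was known to be higher after SNORA73 LNA in total RNA, so the total RNA values are given as a description with no test. That choice was made on total RNA, and the polysome libraries were tested. They come from the same livers and are no second set of animals, so polysome Stab2 is not independent of the choice. Earlier results of these data were also known when the genes and tests were chosen. In polysome RNA 8 of the 10 genes had a log2 fold change above 0, with a median of 0.21 against -0.01 over the 13060 genes tested. None of the 10 passed an adjusted p of 0.05 in the quasi-likelihood test of edgeR, where 0.0153% of all genes tested did. At an unadjusted p under 0.05 there were 2 of 10 (Stab2 and Oit3) beside 1755 of all 13060 genes. DESeq2 called 1 of the 10, beside 282 of all genes, and limma-voom 0. The groups did not overlap for 2 of the 10 in polysome RNA, where they did not for 3.23% of all genes, and for 1 of the 10 in total RNA, where they did not for 1.84%. That 1 gene was Stab2, and nothing is read from it, since total RNA Stab2 helped to choose the list. Stab2 was also 1 of the 2 in polysome RNA.

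Stab2 (ENSMUSG00000035459, GRCm38.p6 chr10:86841194-87008038) encodes the receptor that removes hyaluronan from the circulation. In polysome RNA of GFP LNA mice 1, 2, 3, 8 and 9 its level was 6.03, 7.03, 5.54, 5.73 and 11.3 CPM. In SNORA73 LNA mice 4, 6, 10, 11 and 12 it was 13.1, 16.1, 11.6, 15.5 and 15.2 CPM. Every SNORA73 LNA mouse was above every GFP LNA mouse, and GFP LNA mouse 9, well above the other controls, lay just under SNORA73 LNA mouse 10. The fold was 2.01 (log2 fold change 1.01, SE 0.21), which ranked 195 of the 13060 genes from the largest increase. Its adjusted p was 0.0857 from edgeR, so Stab2 was not called with all 10 mice. Without mouse 9 the log2 fold change was 1.24 with an adjusted p of 0.0158, and DESeq2 on all mice gave 1.01 with an adjusted p of 0.000974. Over all alternatives tried the log2 fold change ran from 0.86 to 1.30 and the adjusted p from 0.000974 to 0.255. These adjusted p are not independent of the choice of Stab2, which rested on its rise in the same livers, and can be too favourable. The fit without mouse 9 also leaves out the control nearest to the SNORA73 LNA mice.

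In total RNA Stab2 was at 5.45, 5.54, 6.09, 4.47 and 8.05 CPM in GFP LNA mice 1, 2, 3, 8 and 9. It was at 12.3, 14.2, 11.1, 10.4 and 13.9 CPM in SNORA73 LNA mice 4, 6, 10, 11 and 12. These groups did not overlap either, and mouse 9 was again the highest control. Stab2 was the only 1 of the 10 called in total RNA by edgeR, where 0.0303% of all genes tested were called, and nothing is read from this, since it helped to choose the list.

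Stab1 (ENSMUSG00000042286, chr14:31139017-31168651), the paralogue of Stab2 in the same clearance system, overlapped between the LNA groups in both RNAs. In polysome RNA it was at 12.7, 14.1, 10.4, 14.5 and 16.7 CPM in GFP LNA mice 1, 2, 3, 8 and 9 and at 15.9, 13.5, 14.5, 15.8 and 15.9 CPM in SNORA73 LNA mice 4, 6, 10, 11 and 12. The highest value of all belonged to a control, again mouse 9. The log2 fold change of Stab1 was 0.14 (SE 0.14, 95% interval -0.13 to 0.41, edgeR adjusted p = 0.708). In total RNA the log2 fold change was 0.30 (SE 0.14). The count of Stab2 divided by that of Stab1 in the same library was 0.394 to 0.676 in GFP LNA and 0.801 to 1.19 in SNORA73 LNA polysome RNA, with no overlap. This ratio needs no scaling between libraries. It holds Stab2, which was chosen for its rise in the same livers, and a difference of Stab2 from Stab1 was not tested. In total RNA it was 0.553 to 0.851 and 0.868 to 1.22, from which nothing is read, since total RNA Stab2 helped to choose the list.

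Lyve1 (ENSMUSG00000030787, chr7:110850607-110862953), a hyaluronan receptor of sinusoidal and lymphatic endothelium, was the most variable of the 10 in total RNA among mice given the same LNA. Its SD was 38.7% of the mean among the GFP LNA mice and 40.6% among the SNORA73 LNA mice in total RNA. The total RNA values were 11.4, 7.08, 11.5, 14.3 and 20.7 CPM in GFP LNA mice 1, 2, 3, 8 and 9 and 15.0, 8.08, 19.2, 10.9 and 7.50 CPM in SNORA73 LNA mice 4, 6, 10, 11 and 12. Mice 9 and 10 had the highest value of their group in total RNA, and in polysome RNA they did so as well, with 9.85 and 11.9 CPM. The log2 fold change was -0.10 (SE 0.30) in total RNA, with a sign that turned when mouse 9, 6 or 12 was left out, and 0.35 (SE 0.24, edgeR adjusted p = 0.584) in polysome RNA. Clec4g (ENSMUSG00000074491, chr8:3707066-3720695), a C-type lectin also called LSECtin, was at 28.8 to 37.3 CPM with GFP LNA and 34.4 to 41.5 CPM with SNORA73 LNA in polysome RNA. These ranges overlapped. For this gene the log2 fold change was 0.17 (SE 0.11, edgeR adjusted p = 0.550) there and 0.18 (SE 0.09) in total RNA.

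The receptors for endothelial growth factors showed small differences of either sign. Kdr (ENSMUSG00000062960, chr5:75932827-75979072), the main receptor for VEGF-A, was at 10.8 to 15.8 CPM with GFP LNA and 13.6 to 19.9 CPM with SNORA73 LNA in polysome RNA (log2 fold change 0.21, SE 0.15, edgeR adjusted p = 0.586). In total RNA it was at 20.03 to 24.7 and 23.2 to 27.8 CPM, and only SNORA73 LNA mouse 10 fell within the control range (log2 fold change 0.26, SE 0.09). Eng (ENSMUSG00000026814, chr2:32646595-32682669), endoglin, a co-receptor for BMP9, was the gene with the lowest polysome log2 fold change of the 10, -0.17 (SE 0.13, edgeR adjusted p = 0.589). Its polysome levels were 20.2, 21.1, 22.1, 23.2 and 23.1 CPM in GFP LNA mice 1, 2, 3, 8 and 9 and 17.8, 20.02, 15.9, 19.96 and 23.9 CPM in SNORA73 LNA mice 4, 6, 10, 11 and 12. Of the 5 SNORA73 LNA mice, 4 were below every control, and the exception, mouse 12, was the highest of all 10. In total RNA the log2 fold change of Eng was 0.07 (SE 0.09).

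The junction proteins were measured with similar precision. Cdh5 (ENSMUSG00000031871, chr8:104101613-104144504), VE-cadherin, the adhesion molecule of endothelial junctions, was at 4.795, 6.27, 6.86, 7.50 and 5.79 CPM in polysome RNA of GFP LNA mice 1, 2, 3, 8 and 9. It was at 9.03, 8.32, 9.45, 6.08 and 7.66 CPM in SNORA73 LNA mice 4, 6, 10, 11 and 12, so that 4 of these 5 lay above every control. The log2 fold change was 0.37 (SE 0.18, edgeR adjusted p = 0.390), the largest after Stab2 among the 10, and 0.30 (SE 0.15) in total RNA. Pecam1 (ENSMUSG00000020717, chr11:106654213-106715281), CD31, had overlapping groups, 10.2 to 14.8 CPM with GFP LNA and 11.6 to 17.4 CPM with SNORA73 LNA in polysome RNA. Its log2 fold change was 0.22 (SE 0.16, edgeR adjusted p = 0.587) there and 0.27 (SE 0.13) in total RNA.

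Of the secreted proteins, Oit3 (ENSMUSG00000009654, chr10:59422960-59441779), a zona pellucida domain protein, was the second gene whose LNA groups did not overlap in polysome RNA. GFP LNA mice 1, 2, 3, 8 and 9 had 9.83, 12.01, 9.33, 11.5 and 11.4 CPM, and SNORA73 LNA mice 4, 6, 10, 11 and 12 had 13.4, 15.8, 13.6, 12.8 and 12.1 CPM. The gap was narrow, since GFP LNA mouse 2 and SNORA73 LNA mouse 12 had nearly the same level. The log2 fold change was 0.32 (SE 0.13, edgeR adjusted p = 0.316, before adjustment 0.0298), and 0.30 (SE 0.12) in total RNA, where the groups overlapped. Dnase1l3 (ENSMUSG00000025279, chr14:7965187-7994760), a secreted DNase, was at 25.3 to 35.0 CPM with GFP LNA and 19.9 to 36.2 CPM with SNORA73 LNA in polysome RNA. Its log2 fold change was -0.04 (SE 0.17, edgeR adjusted p = 0.947) there and 0.13 (SE 0.10) in total RNA.

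Apart from Stab2, the polysome log2 fold changes of the list thus ran from -0.17 to 0.37, with standard errors of 0.11 to 0.24. In total RNA 9 of the 10 were above 0, with a median of 0.26 against 0.01 over the 13195 genes tested. The scaling moves the values of all genes and so bears on how many lie above 0. With library totals in place of TMM, the median of all genes moved to -0.17 in polysome and -0.14 in total RNA, and the medians of the 10 genes moved to 0.06 and 0.12, with 7 of the 10 above 0 in each RNA. The summed level of the 10 genes was 147 to 168 CPM with GFP LNA and 165 to 192 CPM with SNORA73 LNA in polysome RNA. Without Stab2 the sum was 140.5 to 156 and 150 to 176 CPM, and the groups overlapped with or without it.

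**Figure D2:**
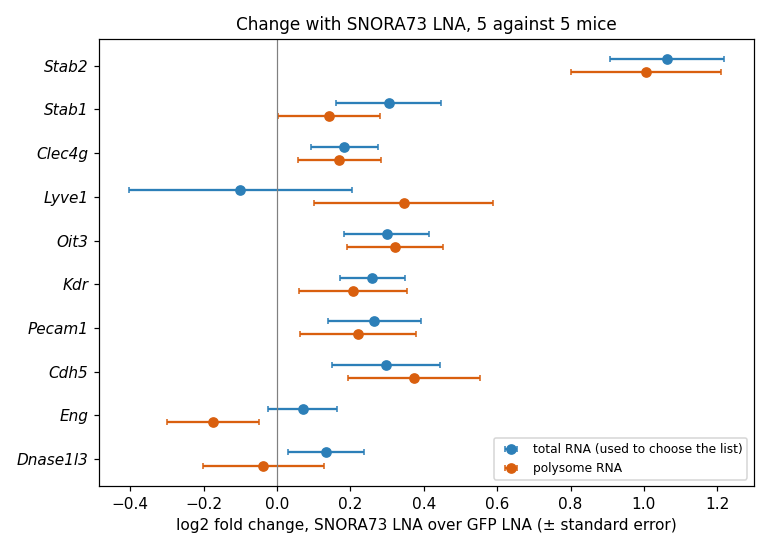
Log2 fold change of SNORA73 LNA over GFP LNA (x axis, ± standard error, 5 against 5 mice) for each marker gene in total RNA (blue, the comparison that helped to choose the list) and polysome RNA (orange). Stab2 lies near 1 in both RNAs, and the other polysome values lie between -0.17 and 0.37.

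The second question was how much of each mRNA was found on polysomes. Polysome and total RNA were compared within each LNA group, a comparison that the choice of genes did not use. A value here is relative to all other mRNAs of the same library, since each library is scaled to its own total. In GFP LNA livers 2 of the 10 genes were higher in polysome RNA, where 24.7% of the 13283 genes tested were, and 5 of the 10 were lower, where 24.0% were. In SNORA73 LNA livers 1 of the 10 was higher, where 17.2% of 13063 genes were, and 3 were lower, where 15.8% were. These counts and shares come from the fits that do not pair the libraries of a liver. Pairing changed the calls of Clec4g, Lyve1 and Pecam1, as given below. The median log2 fold change of the 10 genes was -0.19 in GFP LNA and -0.28 in SNORA73 LNA livers, against 0.03 over all genes in each.

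Cdh5, Kdr and Oit3 were lower in polysome RNA under both LNAs. For Cdh5 the polysome level divided by the total RNA level was 0.570, 0.606, 0.558, 0.558 and 0.527 in GFP LNA mice 1, 2, 3, 8 and 9. It was 0.567, 0.757, 0.582, 0.488 and 0.609 in SNORA73 LNA mice 4, 6, 10, 11 and 12. All 10 ratios were below 1, and the controls were within a narrow band. The log2 fold change was -0.84 in GFP LNA (edgeR adjusted p = 0.000832) and -0.74 in SNORA73 LNA livers (adjusted p = 0.00382). The ratio of Kdr was below 1 in 10 of 10 mice as well, with 0.464 to 0.790 in GFP LNA and 0.489 to 0.738 in SNORA73 LNA mice, and its log2 fold changes were -0.64 (edgeR adjusted p = 0.000592) and -0.68 (adjusted p = 0.00186). So was that of Oit3, with 0.588 to 0.831 and 0.575 to 0.838, and log2 fold changes of -0.64 (edgeR adjusted p = 0.000214) and -0.60 (adjusted p = 0.00482). These 3 genes were called in every alternative tried.

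Lyve1 and Pecam1 were lower in polysome RNA of GFP LNA livers, and their call in SNORA73 LNA livers depended on the model. The Lyve1 ratio was 0.631, 0.509, 0.579, 0.530 and 0.476 in GFP LNA mice 1, 2, 3, 8 and 9 and 0.594, 1.10, 0.619, 0.772 and 0.821 in SNORA73 LNA mice 4, 6, 10, 11 and 12. Of the 10 mice, mouse 6 was the only one above 1. The log2 fold change was -0.90 in GFP LNA (edgeR adjusted p = 0.0192) and -0.44 in SNORA73 LNA livers (adjusted p = 0.206). With the mouse as a replicate block, which pairs the 2 libraries of a liver, the latter was -0.40 with an adjusted p of 0.0439. Pecam1 had log2 fold changes of -0.34 (edgeR adjusted p = 0.0371) and -0.37 (adjusted p = 0.0805), and the replicate block gave -0.38 with an adjusted p of 0.0222 for the latter. The call for Lyve1 in GFP LNA livers was lost without mouse 3 (adjusted p = 0.0548) or mouse 8 (adjusted p = 0.0637), and that for Pecam1 without mouse 1 (adjusted p = 0.0693), mouse 3 (adjusted p = 0.140) or mouse 9 (adjusted p = 0.0695), all from edgeR.

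Stab1 and Eng were on the other side. The Stab1 ratio was 1.29, 1.43, 0.960, 2.28 and 1.77 in GFP LNA mice 1, 2, 3, 8 and 9 and 1.41, 1.02, 1.61, 1.32 and 1.33 in SNORA73 LNA mice 4, 6, 10, 11 and 12. It was above 1 in 9 of 10 mice, GFP LNA mouse 3 being the exception, and mouse 8 stood out because its total RNA level, at 6.36 CPM, was the lowest of all. The log2 fold change was 0.55 in GFP LNA (edgeR adjusted p = 0.0109) and 0.40 in SNORA73 LNA livers (adjusted p = 0.0292). The latter call was lost when mouse 4, 10, 11 or 12 was left out, with adjusted p of 0.0688 to 0.116. The Eng ratio was 1.14 to 1.38 in GFP LNA mice, above 1 in 5 of 5 (log2 fold change 0.29, edgeR adjusted p = 0.00588). In SNORA73 LNA mice it was 0.916 to 1.31, above 1 in 3 of 5 (log2 fold change 0.06, adjusted p = 0.753).

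Stab2, Clec4g and Dnase1l3 were not called in either group. The Stab2 ratio was above 1 in 9 of 10 mice, at 1.11, 1.27, 0.910, 1.28 and 1.40 in GFP LNA mice 1, 2, 3, 8 and 9 and 1.07, 1.13, 1.05, 1.499 and 1.09 in SNORA73 LNA mice 4, 6, 10, 11 and 12. The ranges overlapped throughout. Its log2 fold changes were 0.25 (edgeR adjusted p = 0.354) and 0.21 (adjusted p = 0.272). For Clec4g both were 0.18 (edgeR adjusted p of 0.111 and 0.260), and the replicate block called it higher in GFP LNA livers at 0.17 with an adjusted p of 0.0427. Dnase1l3 had -0.04 and -0.19 (edgeR adjusted p of 0.787 and 0.418). The difference of these log2 fold changes between the LNAs contains the total RNA contrast and is given as a description. None of the 10 was called in this fit, where 0.00725% of all genes tested were. The difference was -0.06 (SE 0.26) for Stab2, and over the 10 genes it ran from -0.24 (SE 0.15) for Eng to 0.45 (SE 0.41) for Lyve1 with a median of -0.04. These standard errors come from a fit that does not pair the libraries of a liver, so they include the spread between mice. A gene called under 1 LNA and not under the other is therefore not shown to differ between them.

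**Figure D3:**
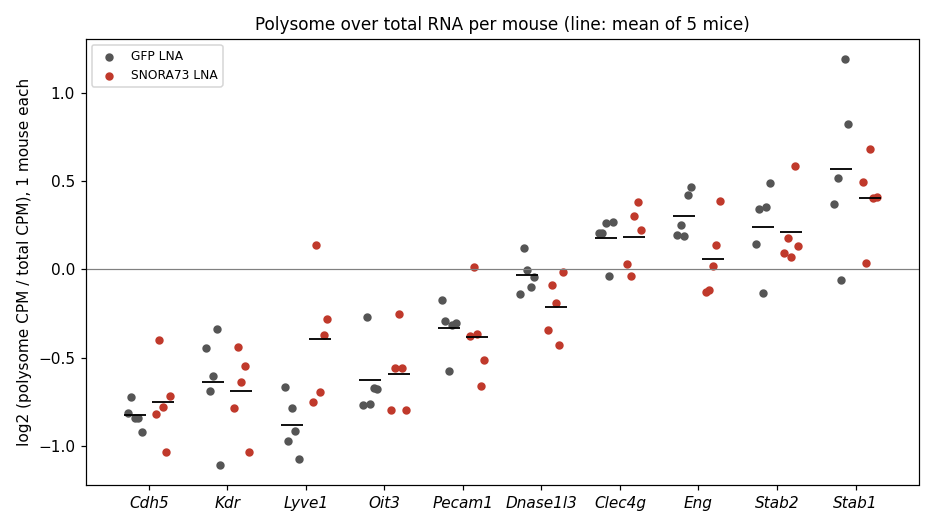
Log2 of the polysome level over the total RNA level (y axis, both scaled CPM) in each mouse for the 10 marker genes, ordered by their mean, with GFP LNA mice in grey and SNORA73 LNA mice in red and a line at the mean of 5 mice. All points of Cdh5, Kdr and Oit3 lie below 0, and those of Stab1 lie above 0 in 9 of 10 mice.

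Gene lists around the 10 markers were described in polysome RNA by the same fit, in which no gene of any of these lists was called at an adjusted p of 0.05 by edgeR. Other sinusoidal endothelial genes were above 0 for 10 of the 12 tested, with a median log2 fold change of 0.37, and 5 of the 12 were at an unadjusted p under 0.05, beside the 1755 of 13060 over all genes. The largest of them were Maf, a transcription factor of sinusoidal identity, at 0.70 (SE 0.22, edgeR adjusted p = 0.216), Wnt2, a sinusoidal Wnt ligand, at -0.68 (SE 0.33, adjusted p = 0.384), and Gpr182, a chemokine scavenging receptor, at 0.67 (SE 0.11, adjusted p = 0.0649). Their summed level was 175 to 223 CPM with GFP LNA and 230 to 354 CPM with SNORA73 LNA in polysome RNA, without overlap, while in total RNA it overlapped at 201 to 255 and 232 to 292 CPM. Maf alone reached 195 CPM in polysome RNA, and without it, a sum added after the values were seen, the polysome sums overlapped at 122 to 137 and 131 to 164 CPM and the total RNA sums did not, at 149 to 171 and 176 to 192 CPM. Pan-endothelial genes outside the 10 were above 0 for 10 of 22, with a median of -0.01 and 6 of 22 at an unadjusted p under 0.05, and their sum overlapped at 151 to 177 and 161 to 210 CPM. Erg, an endothelial transcription factor, was at 1.03 (SE 0.25, edgeR adjusted p = 0.126), Flt1, VEGF receptor 1, at 0.74 (SE 0.16, adjusted p = 0.0992) and Cd34 at -0.68 (SE 0.34, adjusted p = 0.415).

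The ligands and partners of the receptors Kdr and Eng were read from the same libraries. VEGF ligands and co-receptors were above 0 for 2 of the 6 tested, with a median of -0.09, from Vegfd at -0.54 (SE 0.62) to Nrp2, a VEGF co-receptor, at 0.47 (SE 0.20), and Vegfb at -0.24 between them. Genes of the BMP9 and endoglin pathway were above 0 for 5 of 13, with a median of -0.15. Smad4, the shared signal transducer of BMP and TGF-beta receptors, was at 1.02 (SE 0.20, edgeR adjusted p = 0.0823), Acvrl1 (ALK1), the BMP9 receptor that works with endoglin, at -0.66 (SE 0.26, adjusted p = 0.308) and Smad6, an inhibitor of the pathway, at 0.55 (SE 0.25, adjusted p = 0.370). DESeq2 called 1 gene of the BMP9 list, 1 of the other sinusoidal genes and 2 of the pan-endothelial genes, all of them higher. Over all genes in polysome RNA it called 282.

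Markers of the other liver cell types gave the following medians of the log2 fold change in polysome RNA, with no gene called. They were -0.13 over the 10 Kupffer cell markers, -0.08 over the 10 stellate cell markers, -0.07 over the 10 hepatocyte markers, -0.20 over 4 cholangiocyte, -0.47 over 4 lymphocyte and -0.53 over 5 erythroid markers. All 5 erythroid markers were below 0, and their summed level ran from 751 to 1306 CPM in GFP LNA and from 362 to 1229 CPM in SNORA73 LNA libraries, so that the groups overlapped. The sums of the Kupffer cell (218 to 414 against 228 to 450 CPM) and hepatocyte markers (59062 to 83242 against 52173 to 76739 CPM) overlapped between the LNAs. By the size of the log2 fold change, the first genes were Marco (0.78), Adgre1 (-0.32) and Timd4 (-0.28) among Kupffer cell, Col1a1 (-0.41), Col3a1 (-0.32) and Hand2 (-0.31) among stellate cell, and Cyp3a11 (-0.31), Ttr (-0.28) and Tat (0.27) among hepatocyte markers. They were Sox9 (0.58), Spp1 (-0.57) and Epcam (-0.53) among cholangiocyte, Cd3e (-0.62), Cd79a (-0.54) and Nkg7 (-0.40) among lymphocyte, and the globins Hbb-bs (-0.58), Hbb-bt (-0.57) and Hba-a2 (-0.53) among erythroid markers. The part of the erythroid and hepatocyte RNA in the values of the 10 genes was not tested.

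**Figure D4:**
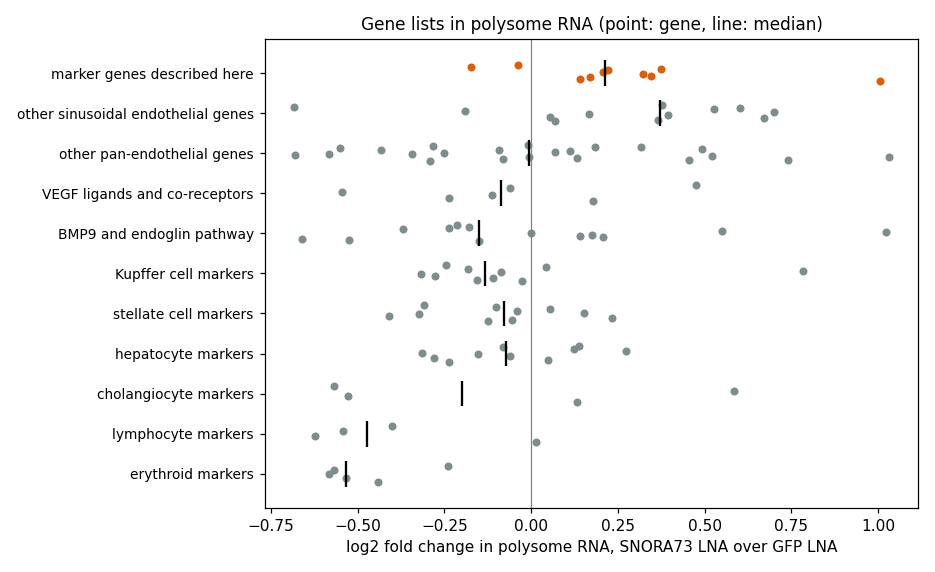
Log2 fold change of SNORA73 LNA over GFP LNA in polysome RNA (x axis) of each gene tested (points) in the 10 marker genes (orange) and the other lists (grey), with a line at each median. The medians of the marker genes (0.21) and of the other sinusoidal genes (0.37) are above 0, and those of the remaining lists are between -0.53 and -0.01.

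Over the 10 total RNA libraries, which hold both LNA groups, 34 of the 45 pairs among the 10 genes had a positive Pearson r of log2 CPM, with a median of 0.39. Over the 10 polysome libraries 29 of 45 did, with a median of 0.24. Taken as deviations from the mean of each LNA group, a measure added after the values were seen, 27 of 45 were positive in total RNA with a median of 0.11, and 24 of 45 in polysome RNA with a median of 0.015. The sign turned for 11 and 13 pairs, among them Stab2 and Pecam1 (0.43 to -0.33 in total RNA) and Stab2 and Cdh5 (0.41 to -0.29). Pecam1 and Cdh5, both junction proteins, had a pooled r of 0.86 in total and 0.62 in polysome RNA, and Lyve1 and Pecam1 had 0.65 and 0.78. Stab2 and Stab1 had 0.71 and 0.64. Eng and Lyve1 lay at the other end with -0.56 and -0.47, and the highest pair in total RNA, Clec4g and Dnase1l3 at 0.87, had 0.20 in polysome RNA. These values are descriptions over 10 livers that share library preparation and LNA groups.

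The 5 genes outside the list most like Stab2 in total RNA were F2 (r = 0.97 over 10 libraries, 0.86 over the 10 polysome libraries), Polr3a (0.94 and -0.07), Opa1 (0.93 and 0.83), Parva (0.93 and 0.89) and Dnajc5 (0.93 and 0.85). Both LNA groups entered, so a gene that differs between them scores high by that alone. Those most like the mean log2 CPM of the 10 genes were Acsf2 (0.95 and 0.95), Rmnd5b (0.95 and 0.80), Bicd2 (0.94 and 0.85), Parva (0.94 and 0.90) and Nlrp6 (0.93 and 0.79). Parva, a cytoskeletal adaptor at integrin adhesions, was on both lists.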

How the data were processed

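Each of 10 mice gave 1 library of total and 1 of polysome liver RNA (polyA-selected, paired 100 bp stranded reads). The table deposited by the authors holds an estimated count for each gene and library. Per the study's methods and the submitters' processing notes, the authors trimmed reads with fastp (Phred quality of at least 15), removed rRNA reads with bowtie, quantified transcripts of GRCm38 with kallisto and summed them per gene with tximport. The strand option of kallisto is not given in the sources used here, and reads shared between similar or overlapping genes are split by estimate. Estimated counts were rounded. Genes with CPM above 0.5 in at least 4 libraries of a fit entered a quasi-likelihood fit in edgeR 4.0.16 (R 4.3.3) after TMM scaling, with Benjamini-Hochberg adjustment over all genes tested, and called at an adjusted p under 0.05. LNA groups were compared within total and within polysome RNA, and polysome with total RNA within each LNA. Printed CPM carry TMM factors over all 20 libraries, while fold changes come from each fit. The scripts were tested on simulated data.

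The same mouse gave both libraries, and the 2 deviated together from their group means in 10 of 10 mice (r of 0.126 to 0.579), so the mouse number was taken to pair them. In 9 of 10 mice the own pair had the highest r, and for SNORA73 LNA mouse 6 (0.126) another mouse's library had a higher one (0.246). It was entered as a block in an alternative fit. Other alternatives were limma-voom (limma 3.58.1), DESeq2 1.42.0, its size factors, library totals, other filters, each mouse left out, 1 fit of 20 libraries, and leaving out mice 9 and 10. The study left out 1 sample per group that its text does not name, and this pair was taken from an earlier analysis of these data. The main fits here use all mice. The 10 genes, the gene lists and the tests were chosen with earlier results of these data known. All 10 genes are named, and of each other list the 3 genes with the largest absolute log2 fold change between the LNAs in polysome RNA. Symbols were matched by Ensembl gene identifier, for 51903 of 53028 identifiers. Gene positions come from the RefSeq annotation of GRCm38.p6, looked up by symbol. LNA sequences come from the study's list of oligonucleotides.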

Additional observations from a re-analysis of the deposited data

Results flagged for a closer look

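Of 60 groups of 5 mice tested for a single far value (CPM and log2 polysome over total ratios of the 10 genes, a gap to the nearest value of more than 0.71 of the range), 4 had one. Chance alone marks about 1 in 20 groups. Stab2 in polysome RNA of GFP LNA mouse 9 was at 11.3 CPM, above the other controls, and the test of Stab2 without this mouse is given above. The log2 ratio of polysome to total RNA was 0.58 for Stab2 in SNORA73 LNA mouse 11, above the other 4 mice. It was -0.27 for Oit3 in GFP LNA mouse 2 and -0.038 for Clec4g in GFP LNA mouse 8, respectively above and below the other controls.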

How the results depend on the processing

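The number of genes called between the LNAs was small and varied with the setting. In polysome RNA it was 2, and became 282 with DESeq2, 72 with no filter, 31 with CPM above 1 in every library, 0 with library totals, 31 without mice 9 and 10, 317 in 1 fit of 20 libraries with no term for the mouse and 0 to 17 with 1 mouse left out (17 without mouse 9). In total RNA it was 4, and became 68, 13, 2, 2 and 97 under the first 5 of these and 1 to 59 with 1 mouse left out (59 without mouse 9). For the change in polysome loading it was 1, and became 7 with DESeq2 and 0 with limma-voom, with CPM above 1 and without mice 9 and 10. Polysome against total RNA in SNORA73 LNA livers gave 4308, and 2736 to 4094 with 1 mouse left out. With the replicate block 8363 genes in place of 6465 were called in GFP LNA and 6038 in place of 4308 in SNORA73 LNA livers, and of the 10 marker genes it changed only the calls of Clec4g, Lyve1 and Pecam1 given above.

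For Stab2 in polysome RNA, a gene chosen for its rise in the same livers, 5 of 19 alternatives passed the threshold. Besides DESeq2 and the fit without mouse 9 these were no filter (edgeR adjusted p = 0.0335), the 8 mice left without mice 9 and 10 (log2 fold change 1.30, adjusted p = 0.0126) and 1 fit of 20 libraries (adjusted p = 0.00785). That last fit took both libraries of a liver as independent, so its adjusted p and its number of calls given above can be too favourable. No other marker gene was called between the LNAs in polysome RNA under any of the 19. Signs turned for values near 0, namely Stab1 in polysome RNA with library totals (-0.015), Dnase1l3 in polysome RNA without mouse 2 (0.02) or 11 (0.093, in a range of -0.114 to 0.093 with 1 mouse left out) and between polysome and total RNA of GFP LNA livers with library totals (0.023), and Eng between polysome and total RNA of SNORA73 LNA livers without mouse 12 (-0.036). Eng in GFP LNA livers lost its call with no filter (edgeR adjusted p = 0.0665), Pecam1 with library totals (0.0587), and Stab1 in SNORA73 LNA livers with no filter (0.142) or CPM above 1 (0.0527), whereas Pecam1 there gained it (0.0444). At the study's minimum log2 fold change of 0.5 for higher genes, Eng in GFP LNA and Stab1 in SNORA73 LNA livers were not called. The cause of these changes was not tested. With 5 mice per group, a log2 difference well beyond its standard error could stay uncalled in polysome RNA. Stab2 was such a case, at 1.01 (SE 0.21, edgeR adjusted p = 0.0857). For the other marker genes, with standard errors of 0.11 to 0.24, a missing call does not show that a difference is absent.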
